A study of Mus musculus with 6 samples.

Results

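Titin is anchored at the Z-disc, spans the I-band spring region and ends at the M-band, and along this path it holds proteins that cap it, crosslink it or sense its strain. The 10 genes described here encode such proteins: Tcap (titin cap), Csrp3 (muscle LIM protein), the muscle ankyrin repeat proteins Ankrd1, Ankrd2 and Ankrd23, the LIM-only proteins Fhl1 and Fhl2, the titin-anchored protease Capn3, and the M-band proteins Myom1 and Myom2. They were chosen by name, all 10 symbols were found once among the 55401 gene identifiers of the counts table, and all 10 passed the filter on low counts that left 17222 genes to test. The muscle ankyrin repeat proteins bind the N2A element of titin in the I-band and are known to move between sarcomere and nucleus. Ankrd1 and Csrp3 are widely used as markers of mechanical load in muscle, and Tcap is a known target of clock factors in skeletal muscle.

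The libraries came from tibialis anterior (TA) muscle of male C57BL/6 mice with an inducible, skeletal muscle-specific Bmal1 knockout, labelled HSA-MCM-Bmal1-/- and called iMSBmal1 -/- here. Mice aged 12 to 16 weeks were given tamoxifen (5 daily doses of 2 mg), adeno-associated virus (AAV) went into the TA 4 weeks later, and the muscle was taken after another 4 weeks, 8 weeks after tamoxifen. AAV-GFP (n = 3) was the control and AAV-RBM20 (n = 3) carried mouse Rbm20 cDNA with an HA tag behind a CMV promoter, so every sample, controls included, lacked muscle Bmal1 and had been exposed to tamoxifen and to a vector. The study's methods give a higher dose for the RBM20 vector than for the GFP vector, so dose and transgene cannot be told apart. Cre was driven by the skeletal actin (HSA) promoter, which leaves Bmal1 intact in cells other than muscle fibres. The replicate numbers of AAV-RBM20 are those of the sample titles, and the column labels of the counts number these samples differently. Nothing in the labels says whether same-numbered muscles came from the same mouse. Same-numbered pairs and the replicate block below therefore rest on the titles alone and need not be matched samples. The lane list of the study's protein blots gives both vectors, marked R and L, under a shared animal number for some mice. It does not say which muscles gave the RNA libraries. The p-values below therefore measure the spread between these samples, which need not all come from different mice.

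RBM20 is the splicing repressor that shortens the titin spring, and the comparison asked what its overexpression did to the transcripts of proteins that sit on titin. Total counts ranged from 41400132 to 54226618 per library. Rbm20 was measured at 166 ± 3.20 CPM (SD, n = 3; CPM is read counts scaled to a common library size) with the GFP vector and at 484 ± 71.0 CPM (SD, n = 3) with the RBM20 vector, with all AAV-RBM20 libraries above all AAV-GFP libraries. Its log2 fold change was 1.54 ± 0.15 (SE), and edgeR gave an adjusted p of 0.121, or of 0.0107 once the replicate number was added as a block. Ttn was measured at 191375, 179501 and 44299 CPM in AAV-GFP replicates 1, 2 and 3 and at 168423, 183540 and 77118 CPM in AAV-RBM20 replicates 1, 2 and 3. The libraries numbered 3 were therefore lowest for titin in both groups, and they also held the highest share of mitochondrially encoded counts, 11.4 to 12.5% against 6.41 to 7.66% in the others. Skeletal muscle identity was clear in every library, with Acta1 at 13481 to 20687 CPM and Ckm at 9659 to 17404 CPM.

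Of the 10 genes, 0 passed the threshold of 0.05 after Benjamini-Hochberg adjustment in the quasi-likelihood test of edgeR, where 0 of all 17222 genes passed (0.00%). At an unadjusted p under 0.05 there were 2 of the 10, Ankrd1 and Fhl2, against 7.90% of all genes tested. In 1 of the 10, Fhl2, the CPM ranges of the groups did not overlap, against 16.8% of all genes tested. The log2 fold change was above 0 for 7 genes and below 0 for Ankrd2, Ankrd23 and Capn3, although the sign of Ankrd2 and Capn3 turned when libraries were scaled to muscle fibre genes and that of Capn3 also with upper quartile factors. The median log2 fold change of the 10 was 0.12, beside 0.009 over all genes tested, but it ranged from 0.037 without AAV-GFP replicate 2 to 0.44 without AAV-GFP replicate 1 when single libraries were left out, and was 0.34 with pan-fibre scaling, where that of all genes was 0.21. With the replicate block the adjusted test passed 0 of the 10 genes (0.145% of all genes), and DESeq2 passed 0 of 10 without the block (0.436%) and 0 of the 9 it could adjust with it (3.70%). The unadjusted test with the block passed 3 of the 10 genes, Ankrd23, Fhl1 and Fhl2, against 18.8% of all genes. Only the fit without both libraries numbered 3 passed 1 of the 10, Tcap, where 4.00% of all genes passed.

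**Figure D1:**
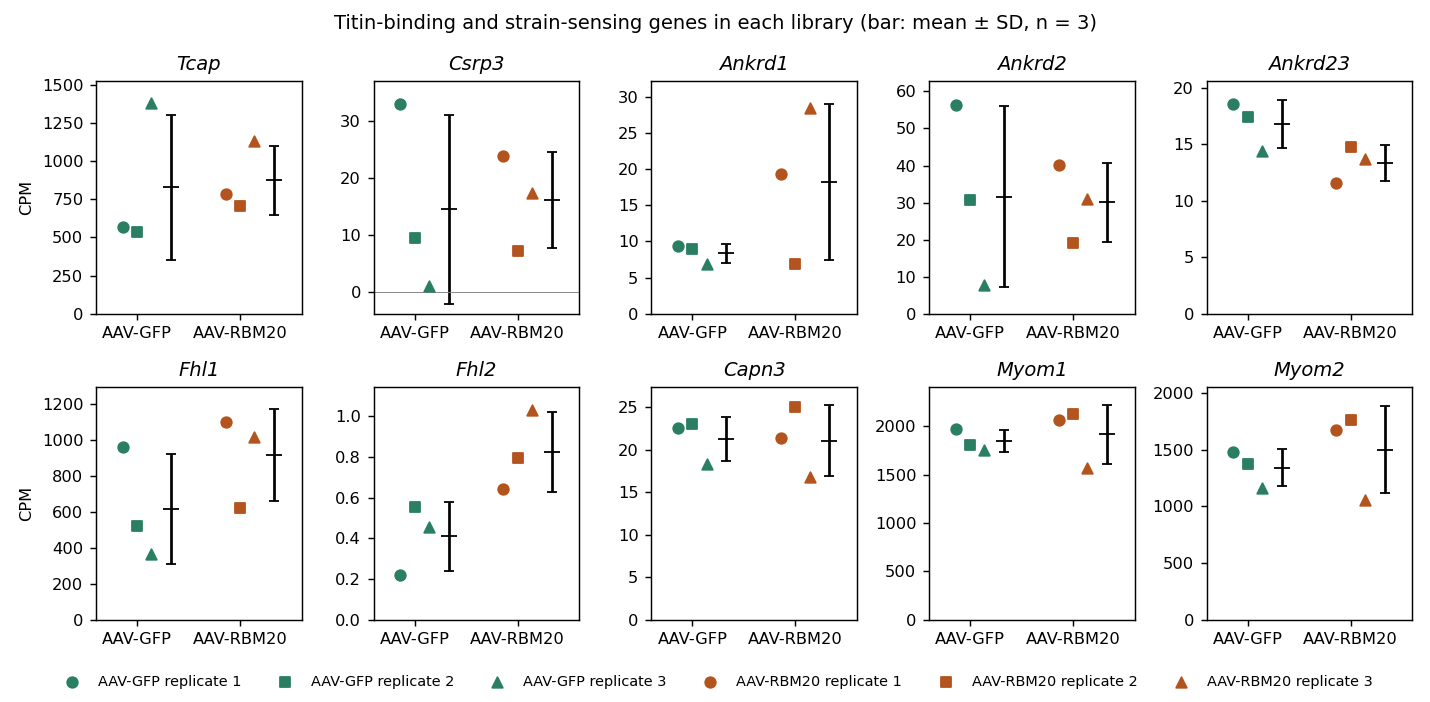
Level of each of the 10 genes in CPM (vertical axis, linear, each panel with its own scale) in AAV-GFP and AAV-RBM20 (horizontal axis). Marker shapes give the replicate number and the black bars the mean ± SD (n = 3). Fhl2 is the panel in which the groups do not overlap, and Csrp3, Ankrd2, Fhl1 and Tcap show AAV-GFP replicate 3 as the lowest or highest point.

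Levels between genes were compared as CPM per kilobase of merged exon. Tcap was the most abundant of the 10, with a median over the 6 libraries of 784 CPM per kilobase and a range of 567 to 1454, clear of the range of every other gene. Fhl1, Myom1 and Myom2 followed at medians of 213, 181 and 162 CPM per kilobase, and their ranges overlapped. Ankrd2, at a median of 27.1 CPM per kilobase, lay below these. Ankrd23, Csrp3, Capn3 and Ankrd1 had medians of 5.41, 5.05, 4.37 and 3.16 CPM per kilobase, and neighbours in this order, Ankrd2 with Ankrd23 included, could not be separated by their ranges. Fhl2 was the lowest at 0.314 CPM per kilobase, with a range of 0.117 to 0.543.

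Ankrd1 (ENSMUSG00000024803; GRCm38 chromosome 19, 36111961 to 36120099, minus strand) had the largest log2 fold change of the 10 in the fit of all 6 libraries without the block. Fhl2 was above it with the block (1.05 against 0.95) and without both libraries numbered 3 (0.89 against 0.54). In limma-voom (0.94) Csrp3 (1.18) and Fhl2 (1.03) were above it. Among the fits that left out a single library, Ankrd1 was highest only without AAV-RBM20 replicate 2 (1.51). Csrp3 was above it without AAV-GFP replicate 1 (1.62 against 1.21). Fhl2 was above it without AAV-GFP replicate 2 (1.25 against 1.17) or 3 (1.08 against 1). The same held without AAV-RBM20 replicate 1 (1.15 against 1.09) or 3 (0.81 against 0.66). Ankrd1 drew 378, 373 and 360 counts in AAV-GFP replicates 1, 2 and 3, and 1052, 278 and 1383 in AAV-RBM20 replicates 1, 2 and 3. In CPM these were 9.30, 8.94 and 6.84 for the controls and 19.3, 6.92 and 28.5 with AAV-RBM20. AAV-RBM20 replicates 1 and 3 stood above every control, while replicate 2 lay at the bottom of the control range. The AAV-GFP mean was 8.36 ± 1.33 CPM and the AAV-RBM20 mean 18.2 ± 10.8 CPM (SD, n = 3 each), a ratio of 2.18. On the log2 scale the fold change was 1.13 ± 0.43 (SE), for which edgeR gave an unadjusted p of 0.0321 and an adjusted p of 0.618, while the two-sided p of the exact permutation test was 0.3. Single AAV-RBM20 libraries moved the value, to a log2 fold change of 0.66 without AAV-RBM20 replicate 3 and of 1.51 without AAV-RBM20 replicate 2, and it was 0.54 without both libraries numbered 3.

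Ankrd2 (chromosome 19, 42036000 to 42045110, plus strand) is the ankyrin repeat member known from slow and stretched muscle. It was measured at 56.4, 30.8 and 7.66 CPM in AAV-GFP and at 40.2, 19.0 and 30.9 CPM in AAV-RBM20. The AAV-GFP libraries spanned 7.37-fold and enclosed all AAV-RBM20 libraries. Its log2 fold change of -0.07 ± 0.60 (SE) was within the replicate spread, with an adjusted p of 0.979 in edgeR.

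Ankrd23 (chromosome 1, 36530188 to 36536883, minus strand), the diabetes-related member of the family, was the steadiest of the ankyrin repeat genes. It was measured at 18.6, 17.4 and 14.4 CPM in AAV-GFP and at 11.6, 14.7 and 13.7 CPM in AAV-RBM20. It was lower in AAV-RBM20 in each of the 3 same-numbered pairs, but AAV-RBM20 replicate 2 lay just above AAV-GFP replicate 3. Ankrd23 had a log2 fold change of -0.33 ± 0.15 (SE), with an adjusted p of 0.641 in edgeR and a two-sided p of 0.2 in the exact permutation test. Without both libraries numbered 3 the value was -0.45 ± 0.12 (SE), with an adjusted p of 0.0686 in edgeR. Another annotated gene on the same strand shares exon sequence with Ankrd23, so its count is uncertain to that extent.

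The promoter windows of Ankrd1, Ankrd2 and Csrp3 are shown because these genes had the largest fold change in the fit without the block (Ankrd1) or the widest spread between libraries (Csrp3 and Ankrd2). Each is the 250 bases before a RefSeq transcript start on GRCm38.p6, 5′ to 3′ on the strand of the gene. Capitals mark E-boxes (CANNTG, the site of bHLH factors such as MyoD) and MCAT elements (GGAATG on either strand, the site of TEAD factors). CArG boxes (serum response factor) and MEF2 sites were searched as well. The CACGTG form of the E-box, a site of the clock factors, was also counted apart. The study itself searched for the general CANNTG form only in Rbm20, in putative regulatory regions at its clock factor and MYOD1 peaks.
Ankrd1 (chr19:36119845-36120094, minus strand): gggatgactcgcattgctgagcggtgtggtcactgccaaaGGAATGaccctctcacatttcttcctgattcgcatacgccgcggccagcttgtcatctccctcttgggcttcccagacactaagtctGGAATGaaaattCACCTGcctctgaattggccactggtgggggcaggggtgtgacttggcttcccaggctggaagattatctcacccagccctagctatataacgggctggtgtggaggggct
Ankrd2 (chr19:42035777-42036026, plus strand): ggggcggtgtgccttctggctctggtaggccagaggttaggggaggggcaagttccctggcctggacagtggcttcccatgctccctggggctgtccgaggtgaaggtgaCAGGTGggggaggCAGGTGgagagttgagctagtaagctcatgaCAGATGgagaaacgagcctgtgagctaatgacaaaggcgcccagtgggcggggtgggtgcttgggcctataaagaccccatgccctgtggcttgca
Csrp3 (chr7:48848052-48848301, minus strand): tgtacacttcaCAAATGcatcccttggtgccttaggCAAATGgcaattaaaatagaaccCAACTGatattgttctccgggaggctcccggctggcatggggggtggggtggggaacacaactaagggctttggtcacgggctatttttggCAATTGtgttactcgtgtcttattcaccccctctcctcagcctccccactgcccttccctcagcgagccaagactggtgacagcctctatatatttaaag
The Ankrd1 window held 2 MCAT elements and 1 E-box, the Ankrd2 window 3 E-boxes and the printed Csrp3 window 4 E-boxes, and the motif sites did not overlap each other. Csrp3 has another RefSeq window, not printed here, which also held 4 E-boxes. RefSeq windows were matched for 8 of the 10 genes, all but Tcap and Myom2, with 13 windows in all. An E-box stood in 12 of the 13, against 66.2% of all 32851 windows of the same length, and its CACGTG form in 0 of 13, against 6.02%. MCAT elements were found in 2 of 13 (12.6% of all windows), CArG boxes in 4 of 13 (1.47%) and MEF2 sites in 2 of 13 (2.92%). The CArG boxes lay in windows of Fhl1, Fhl2 (both windows) and Myom1. Windows of one gene are not independent, and a match of letters is a description of the sequence only.

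Csrp3 (chromosome 7, 48830398 to 48848033, minus strand) encodes muscle LIM protein, which sits at the Z-disc with Tcap and alpha-actinin and is most abundant in slow fibres and the heart. The control libraries held 1342, 398 and 58 counts, or 33.01, 9.54 and 1.10 CPM. Those given AAV-RBM20 held 1304, 290 and 848 counts, or 23.9, 7.21 and 17.5 CPM. The AAV-GFP libraries alone spanned 30.0-fold, the widest spread of the 10 genes, and enclosed every AAV-RBM20 library. Csrp3 had a log2 fold change of 0.16 ± 0.93 (SE), with an adjusted p of 0.968 in edgeR. Its sign turned without AAV-GFP replicate 2 (-0.071), AAV-GFP replicate 3 (-0.39) or AAV-RBM20 replicate 1 (-0.23), and the value was 1.62 without AAV-GFP replicate 1, so no direction can be given for Csrp3.

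Fhl1 (chromosome X, 56731787 to 56793346, plus strand), a LIM-only protein that binds the titin N2B element and is mutated in reducing body myopathy, followed the same libraries. It was measured at 960, 523 and 369 CPM in AAV-GFP and at 1102, 623 and 1017 CPM in AAV-RBM20. It was higher in AAV-RBM20 in each of the 3 same-numbered pairs, although AAV-GFP replicate 1 lay above AAV-RBM20 replicate 2. The mean was 617 ± 307 CPM (SD, n = 3) against 914 ± 256 CPM (SD, n = 3), with a log2 fold change of 0.57 ± 0.36 (SE) and an adjusted p of 0.667 in edgeR. With the replicate block the unadjusted p was 0.0447 and the adjusted p 0.256 in edgeR. On the log2 scale, leaving out AAV-GFP replicate 1 gave 1.03 and leaving out AAV-GFP replicate 3 gave 0.30.

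Csrp3, Ankrd2 and Fhl1 shared their pattern over the libraries with genes of slow and oxidative fibres. In AAV-GFP replicate 3, where all 3 were lowest, Myh2, the myosin of fast oxidative fibres, was at 31.6 CPM, against 416 to 792 CPM in the other libraries. Myom3, the M-band myomesin of such fibres, was at 1.92 CPM there, against 16.6 to 63.0 CPM elsewhere, and Myl3, a slow myosin light chain, at 10.8 CPM against 21.3 to 58.3 CPM. The summed level of the 10 slow fibre markers was 73.3 CPM in AAV-GFP replicate 3 and 138 to 213 CPM in the other libraries. Slow myosin itself, Myh7, stayed between 0.0950 and 5.97 CPM. Of the 10 slow fibre markers 7 had a log2 fold change above 0, with a median of 0.32. In edgeR 0 passed the adjusted test, and 2 had an unadjusted p under 0.05, against 7.90% of all genes tested. In the fit without both libraries numbered 3, 5 of the 10 lay above 0, with a median of 0.12 and 0 called. DESeq2 with the block called 2 of the slow fibre markers higher, where 3.70% of all genes were called. Of the 10 fast fibre markers 8 lay below 0, with a median of -0.46. Of these markers 0 passed in edgeR, and 3 had an unadjusted p under 0.05, against 7.90% of all genes. When both libraries numbered 3 were left out, 4 of the 10 lay above 0, with a median of -0.20. In that fit 3 were called, where 4.00% of all genes passed. DESeq2 called 1 lower without the block (0.436% of all genes) and 4 lower with it (3.70%). In whole muscle, fewer fibres of a type and less RNA per fibre cannot be told apart, and the part of fibre type in the values of Csrp3, Ankrd2 and Fhl1 was not tested.

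**Figure D2:**
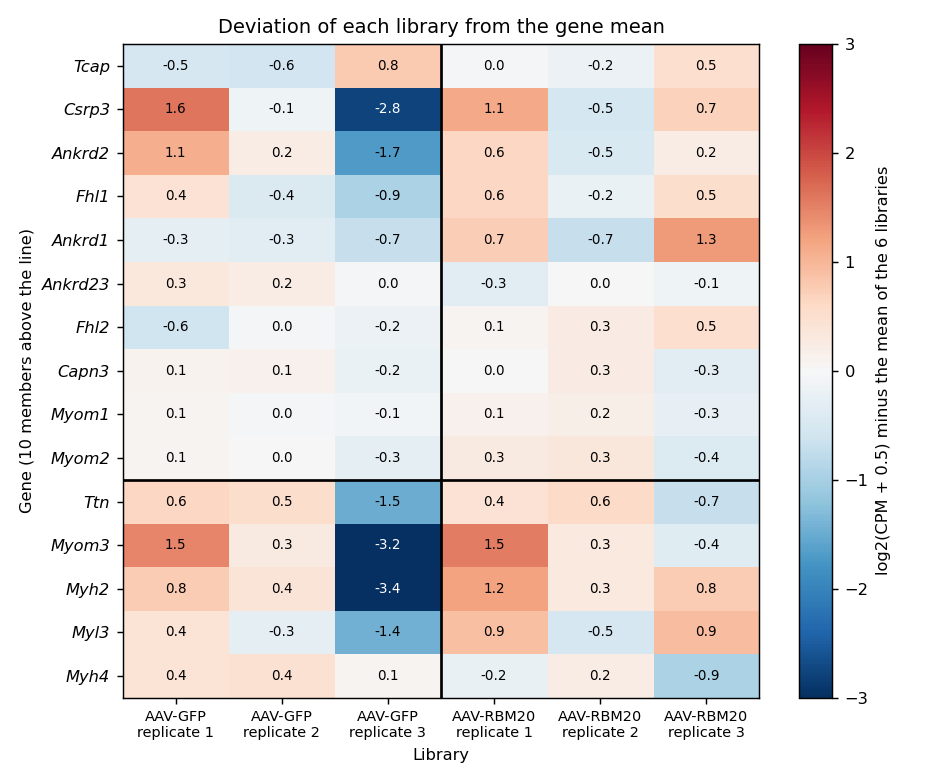
Deviation of each library (columns) from the mean of the 6 libraries on the log2(CPM + 0.5) scale for the 10 genes (rows above the line) and for Ttn, Myom3, Myh2, Myl3 and the fast myosin Myh4 (rows below it). Red is above and blue below the mean, and the colour does not deepen beyond 3. AAV-GFP replicate 3 is lowest for Csrp3 (-2.79), Ankrd2 (-1.71), Fhl1 (-0.95), Myom3 (-3.19) and Myh2 (-3.41) while Tcap is highest there (0.78).

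Tcap (chromosome 11, 98383811 to 98384953, plus strand) encodes telethonin, which joins the ends of a pair of titin molecules at the Z-disc. It was measured at 568, 537 and 1378 CPM in AAV-GFP and at 782, 705 and 1132 CPM in AAV-RBM20. The libraries numbered 3 were highest within each group, and without them both AAV-RBM20 libraries lay above both AAV-GFP libraries. The AAV-GFP mean was 828 ± 477 CPM and the AAV-RBM20 mean 873 ± 228 CPM (SD, n = 3 each), with a log2 fold change of 0.08 ± 0.38 (SE) and an adjusted p of 0.962 in edgeR. Without both libraries numbered 3 it came to 0.44 ± 0.075 (SE), with an adjusted p of 0.01003 in edgeR. Without AAV-RBM20 replicate 3 alone it was -0.14, and without AAV-GFP replicate 3 alone 0.66.

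Tcap and titin went opposite ways in the libraries numbered 3. Per 1000 Ttn counts of the same library there were 2.97, 2.99 and 31.1 Tcap counts for the controls and 4.64, 3.84 and 14.7 with AAV-RBM20. Tcap has the shortest transcript model of the 10 genes, at 948 bases of merged exon against 116825 for Ttn. In AAV-GFP replicate 3, relative to replicates 1 and 2, the median log2 difference was 0.34 over 2046 genes of up to 2 kilobases and -0.21 over 1295 genes of over 10 kilobases. In AAV-RBM20 these medians were 0.11 and -0.04. The log2 difference of Tcap was 1.32 and 0.61 in the same comparisons, whereas that of Ankrd2, at 1138 bases, was -2.37 and 0.16. The part of transcript length in the value of Tcap was not tested.

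Myom1 (chromosome 17, 71002633 to 71126856, plus strand) and Myom2 (chromosome 8, 15057653 to 15133541, plus strand) encode myomesin-1 and M-protein, which crosslink myosin and titin at the M-band, Myom2 mainly in fast fibres. Myom1 was measured at 1971, 1806 and 1757 CPM in AAV-GFP and at 2059, 2120 and 1564 CPM in AAV-RBM20. Myom2 was measured at 1485, 1379 and 1167 CPM in AAV-GFP and at 1674, 1766 and 1061 CPM in AAV-RBM20. AAV-RBM20 replicate 3 was the lowest library for both genes, and the other AAV-RBM20 libraries were the highest. The log2 fold change was 0.05 ± 0.17 (SE) for Myom1 and 0.16 ± 0.22 (SE) for Myom2, with adjusted p values of 0.938 and 0.839 in edgeR. With all 6 libraries neither difference exceeded the replicate spread. Without both libraries numbered 3, Myom2 came to 0.27 ± 0.074 (SE), with an adjusted p of 0.0722 in edgeR. Myom1 came to 0.15 ± 0.075 (SE) in that fit, with an adjusted p of 0.314. Myom1 shares exon positions with Myl12a on the opposite strand, so its count depends on the strand setting, which is not given in the sources used here.

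Capn3 (chromosome 2, 120456019 to 120504913, plus strand) encodes the muscle calpain that is held inactive on titin and is mutated in a limb-girdle muscular dystrophy. It was measured at 22.6, 23.0 and 18.3 CPM in AAV-GFP and at 21.3, 25.1 and 16.8 CPM in AAV-RBM20. The groups covered nearly the same range, with a log2 fold change of -0.02 ± 0.18 (SE) and an adjusted p of 0.984 in edgeR. Ganc shares exon positions with Capn3 on the same strand, so its count is uncertain to that extent.

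Fhl2 (chromosome 1, 43123074 to 43196984, minus strand), the LIM-only protein of the heart that docks metabolic enzymes on titin, was the least abundant of the 10 genes in TA muscle. The control libraries held 9, 23 and 24 counts of it, and those given AAV-RBM20 held 35, 32 and 50. All AAV-RBM20 libraries lay above all AAV-GFP libraries, at 0.642, 0.796 and 1.03 CPM against 0.221, 0.551 and 0.456 CPM. Fhl2 had a log2 fold change of 0.995 ± 0.42 (SE), with an unadjusted p of 0.0441 and an adjusted p of 0.618 in edgeR. Its two-sided p in the exact permutation test was 0.1, and 3 against 3 samples can give none smaller. All 5 macrophage and all 5 fibroblast markers had a log2 fold change above 0, with 0 called in edgeR. At an unadjusted p under 0.05 there were 0 and 1 of them, against 7.90% of all genes. With the replicate block edgeR called 2 of the 5 macrophage markers, Ctss and Ccr2, higher, where 0.145% of all genes passed. DESeq2 with the block called 4 macrophage and 2 fibroblast markers higher, where 3.70% of all genes were called. Without both libraries numbered 3, edgeR called 5 of 5 macrophage and 4 of 5 fibroblast markers, where 4.00% of all genes passed. The macrophage markers summed to 10.997 to 36.6 CPM in AAV-GFP and 23.9 to 63.3 CPM in AAV-RBM20, the fibroblast markers to 607 to 1252 CPM and 1008 to 1367 CPM, and the smooth muscle markers to 111 to 151 CPM and 115 to 148 CPM, and the part of other cell types in Fhl2 was not tested.

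**Figure D3:**
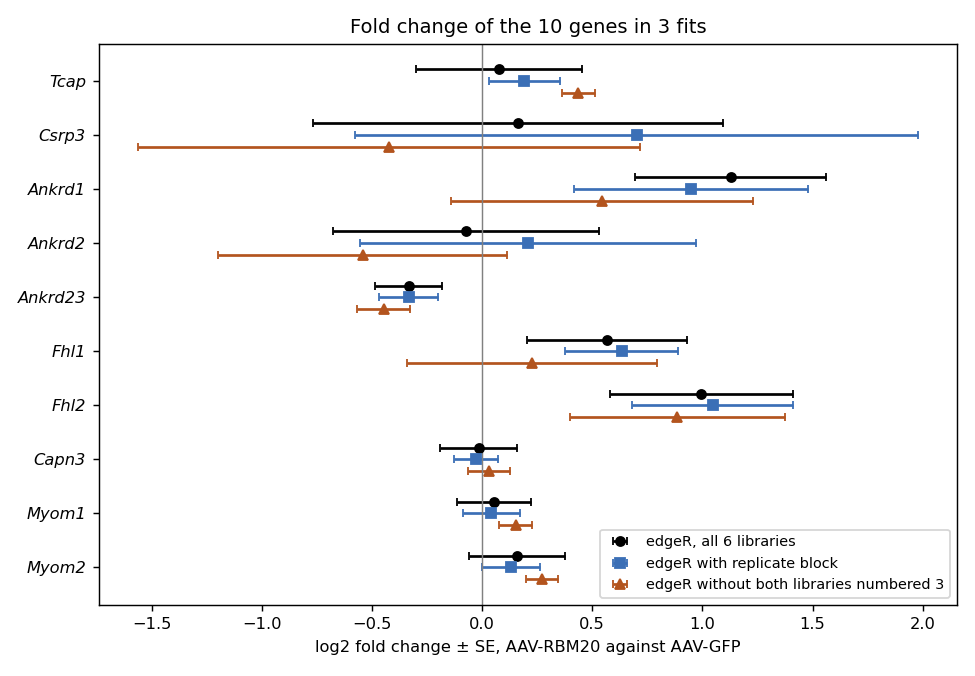
Log2 fold change of AAV-RBM20 against AAV-GFP with its SE (horizontal axis) for each of the 10 genes (vertical axis) in the edgeR fit of all 6 libraries, with the replicate block, and without both libraries numbered 3. Tcap, at 0.44 in the last of these, is the single value past an adjusted p of 0.05, and the SE of Csrp3 reached 1.28 with the block.

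Ratios of 2 genes within one library do not depend on how libraries are scaled, and 5 such ratios were compared. The log2 ratio of Ankrd1 to Ankrd23 was -1, -0.96 and -1.08 for the controls and 0.73, -1.09 and 1.06 with AAV-RBM20. AAV-RBM20 replicate 2 again sat with the controls, while replicates 1 and 3 held more Ankrd1 than Ankrd23 counts. The difference was 1.25, with a two-sided exact permutation p of 0.4 (0.833 adjusted over the 5 ratios). It ranged from 0.83 without AAV-RBM20 replicate 3 to 1.91 without AAV-RBM20 replicate 2. The log2 ratio of Ankrd1 to Ankrd2 differed by 0.64, higher in AAV-RBM20 in 3 of 3 same-numbered pairs, with an exact permutation p of 0.4, and ranged from 0.096 without AAV-GFP replicate 1 to 1.32 without AAV-GFP replicate 3. The log2 ratio of Myom1 to Myom2 was 0.41, 0.39 and 0.59 for the controls and 0.30, 0.26 and 0.56 with AAV-RBM20. It was lower in AAV-RBM20 in each of the 3 same-numbered pairs, with a mean paired difference of -0.088 ± 0.051 (SD, n = 3 pairs). The exact permutation p was 0.5 between groups and 0.25 within pairs, the smallest that 3 pairs allow. As the pairing is not established, the paired values hold only if the numbering matches the samples. The ratio of Fhl2 to Fhl1 differed by 0.44 and that of Csrp3 to Tcap by 0.85, with exact permutation p values of 0.8 and 0.9 (0.9 adjusted for both).

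**Figure D4:**
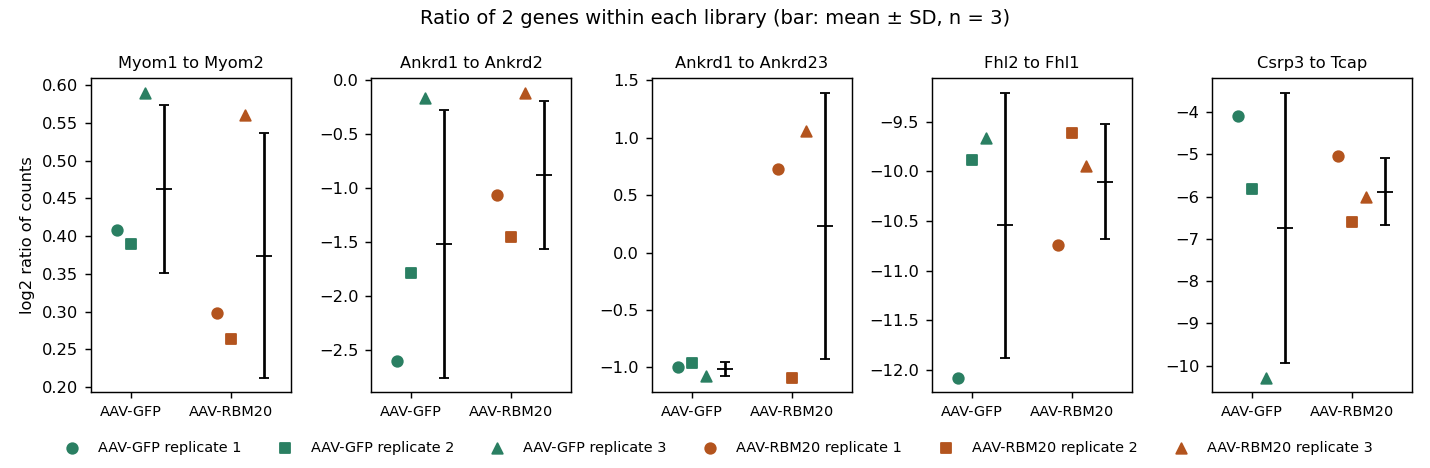
Log2 ratio of the counts of 2 genes of the same library (vertical axis, each panel with its own scale) in AAV-GFP and AAV-RBM20 (horizontal axis), with marker shapes for the replicate number and black bars for the mean ± SD (n = 3). In the panel of Ankrd1 to Ankrd23, AAV-RBM20 replicates 1 and 3 stand at 0.73 and 1.06 and the other 4 libraries between -1.09 and -0.96.

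Among 32 further partners of titin and the Z-disc, 0 passed the adjusted test in edgeR, 12 had a log2 fold change above 0 and 20 below 0, with a median of -0.06. Without both libraries numbered 3, 2 of the 32 passed in edgeR, where 4.00% of all genes passed. DESeq2 with the block called 1 higher and 4 lower, where 3.70% of all genes were called. The highest values were those of Actn2, Myoz2 and Obsl1, at 0.55 ± 0.35, 0.39 ± 0.57 and 0.27 ± 0.27 (SE). Actn2 is the alpha-actinin present in all fibres, Myoz2 a calcineurin-binding Z-disc protein of slow fibres and Obsl1 a partner of titin and myomesin at the M-band. The lowest were those of Actn3, the alpha-actinin of fast fibres, at -0.56 ± 0.21 (SE), Trim54, a titin-binding ring finger protein, at -0.54 ± 0.15 (SE), and Smyd2, a methyltransferase linked to titin N2A, at -0.54 ± 0.30 (SE). At an unadjusted p under 0.05 there were 4 of the 32, Actn3, Trim54, Trim63 and Sqstm1, all below 0, against 7.90% of all genes tested. Of these, the last 2 were named after their values were seen. Trim63 and Sqstm1 take part in protein turnover at the titin kinase region, and their log2 fold changes were -0.50 ± 0.17 and -0.31 ± 0.13 (SE).

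Ankrd1 is also a textbook target of YAP and TEAD, so 15 genes of the YAP and SRF pathways were read from the same fit. None passed the adjusted test (0 of 15 in edgeR), 1 of 15, Srf, had an unadjusted p under 0.05, against 7.90% of all genes, 9 lay above 0 and 6 below 0, and the median log2 fold change was 0.06. Leaving out both libraries numbered 3, edgeR passed 2 of the 15, where 4.00% of all genes passed. DESeq2 with the block called 1 lower, where 3.70% of all genes were called. Ccn2, Egr1 and Axl were the highest at 0.64 ± 0.40, 0.53 ± 0.26 and 0.42 ± 0.25 (SE), and Tead4, Srf and Amotl2 the lowest at -0.52 ± 0.50, -0.41 ± 0.16 and -0.16 ± 0.20 (SE). Ccn2, a secreted YAP target, was measured at 9.72, 5.97 and 4.88 CPM in AAV-GFP and at 10.8, 5.27 and 15.8 CPM in AAV-RBM20. As for Ankrd1, AAV-RBM20 replicates 1 and 3 were its highest libraries and AAV-RBM20 replicate 2 lay within the controls. Egr1 and Axl did not share this order. For Egr1, AAV-RBM20 replicate 1 (4.75 CPM) lay below AAV-GFP replicates 1 (5.39 CPM) and 2 (5.56 CPM). For Axl, AAV-GFP replicate 3 (44.0 CPM) lay above AAV-RBM20 replicate 1 (41.9 CPM). The part of the YAP pathway in the value of Ankrd1 was not tested. Srf encodes the serum response factor that drives many sarcomere genes.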

How the data were processed

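Strand-specific, rRNA-depleted RNA libraries of 6 TA muscles were sequenced by the authors, with HISAT2 alignment to mm10 and HTSeq counting per gene. Tool versions, the strand setting and the annotation release are not given in the sources used here. The deposited table of raw counts was used. A second deposited table of counts divided by size factors was left out. Counts were filtered with filterByExpr, scaled by TMM and tested with edgeR 4.0.16 (quasi-likelihood, robust, no covariate, R 4.3.3), with Benjamini-Hochberg adjustment over 17222 genes and a threshold of 0.05. CPM used TMM-scaled library sizes. Gene lengths and positions came from GENCODE on GRCm38 and promoters from RefSeq. Ratios within libraries used two-sided exact permutation tests.

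The 10 genes and the lists were chosen with earlier results of these data known. Named genes included all 10, Rbm20, Ttn and, from each pathway list, the 3 highest and 3 lowest log2 fold changes at a mean of at least 1 CPM. Marker genes of muscle and of fibre or cell types were also named where their level bore on the 10 genes. Myom3, Trim63 and Sqstm1, of the titin partners, were named outside these rules. Same-numbered samples of the groups deviated together (correlations of 0.40, 0.18 and 0.46, each above 0.1), and the block and pair counts used this numbering. Among differently numbered samples, AAV-GFP 2 with AAV-RBM20 1 gave 0.20, which exceeded the 0.18 for replicate 2, and AAV-GFP 1 with AAV-RBM20 2 gave 0.12. Deviations were taken from the mean of each group. A shared departure of the libraries numbered 3 can then make libraries 1 and 2 correlate whatever their pairing. The check therefore could not tell replicates 1 and 2 apart, and the pairing of these is not established. Alternatives were DESeq2 1.42.0, limma-voom (limma 3.58.1), other scalings and filters, the replicate block and left-out libraries. DESeq2 with the block was added after seeing the data. The fits were tested on simulated counts with the same dispersion for every gene and no replicate effect. That test does not show how they perform on libraries that depart as those numbered 3 do.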

Additional observations from a re-analysis of the deposited data

How the results depend on the processing

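In edgeR 0 genes passed the adjusted test (1360 at an unadjusted p under 0.05). That number was 3 when libraries were scaled to pan-fibre genes, 8 when no genes were filtered out, 25 under the replicate block, 75 in DESeq2, 513 with DESeq2 and the replicate block and 690 without both libraries numbered 3. It was 0 in each fit without 1 library. Of the 10 genes, 1 (Tcap, log2 fold change 0.44) passed without both libraries numbered 3 and 0 under every other setting, the replicate block included, so the block changed no call among them. Scaling to pan-fibre genes moved the median log2 fold change of all genes to 0.21. Of 199 alternative values of the 10 genes, 27 turned sign, all of them short of the threshold, and the cause was not tested. Without both libraries numbered 1, 2 or 3 these were Tcap (-0.056 without 1, -0.030 without 2), Csrp3 (-0.42 without 3), Ankrd2 (0.36 without 1, 0.12 without 2), Capn3 (0.012 without 1, 0.031 without 3) and Myom1 (-0.061 without 2). Ankrd2 also turned with pan-fibre scaling (0.11), limma-voom (0.29), the replicate block (0.21) and DESeq2 with the block (0.22), and Capn3 with pan-fibre scaling (0.15), upper quartile factors (0.025) and the CPM filter (0.0079). Leaving out 1 library at a time gave log2 fold changes of -0.16 to 0.66 for Tcap, -0.39 to 1.62 for Csrp3, -0.54 to 0.64 for Ankrd2, -0.16 to 0.13 for Capn3, -0.030 to 0.19 for Myom1, 0.66 to 1.51 for Ankrd1, -0.44 to -0.24 for Ankrd23, 0.30 to 1.03 for Fhl1, 0.70 to 1.25 for Fhl2 and 0.022 to 0.36 for Myom2. Among 40 alternative ratios, 3 turned sign. Leaving out 1 library gave log2 ratio differences of 0.096 to 1.32 for Ankrd1 to Ankrd2, 0.83 to 1.91 for Ankrd1 to Ankrd23 and -0.18 to -0.02 for Myom1 to Myom2. The log2 ratio of Fhl2 to Fhl1 ranged from -0.33 to 0.88 over the left-out libraries, and that of Csrp3 to Tcap from -0.93 to 2.16, with -0.86 without both libraries numbered 3. The CPM filter removed Fhl2, which had 9 to 50 counts per library, so its depth limits the precision of its fold change.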

Other observations

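Markers of immature or denervated fibres were the list with the most unadjusted calls. Of its 7 measured genes 6 had a log2 fold change above 0, with a median of 0.70, and 0 passed the adjusted test in edgeR. An unadjusted p under 0.05 was reached by 6 of the 7, against 7.90% of all genes tested, and these were not the same genes: Myod1 was below 0 at -0.32 ± 0.11 (SE), while Chrna1, at 0.42 ± 0.39 (SE), was above 0 but not among them. The embryonic and perinatal myosins Myh3 and Myh8 had log2 fold changes of 2.00 ± 0.59 and 2.00 ± 0.47 (SE), and Runx1, a transcription factor known to be induced in denervated muscle, was measured at 5.58 ± 0.70 CPM in AAV-GFP and 13.3 ± 0.74 CPM in AAV-RBM20 (SD, n = 3). These genes were named after their values were seen. With the replicate block 1 of the 7 genes passed the adjusted test in edgeR (0.145% of all genes). Without both libraries numbered 3, 2 passed (4.00% of all genes). DESeq2 called 2 without the block (0.436% of all genes) and 4 with it (3.70%).

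Markers of other cell types were read from the same fit, with 0 called in each list in edgeR. The log2 fold change was above 0 in 4 of 4 endothelial, 3 of 4 tendon, 3 of 5 smooth muscle, 0 of 3 adipocyte, 1 of 3 cardiac and 1 of 7 pan-fibre genes, with medians of 0.16, 0.73, 0.00, -0.66, -0.29 and -0.20. Without both libraries numbered 3 the endothelial median was 0.014 (2 of 4 above 0) and the tendon median 0.021 (2 of 4). The smooth muscle median was -0.04 (2 of 5, with 1 called, where 4.00% of all genes passed). In the same fit the adipocyte median was -0.89, the cardiac median -0.19 and the pan-fibre median -0.02. Tendon markers summed to 22.5 to 44.2 CPM in AAV-GFP and 4.33 to 93.0 CPM in AAV-RBM20, where replicate 2, the library with the least Ankrd1 among the AAV-RBM20 libraries, was the lowest. Whether tendon content bears on Ankrd1 was not tested.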
